A study of Mus musculus with 35 samples.

Results

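The kidney is a main site of amino acid breakdown outside the liver, and most of the work is done by the proximal tubule, which takes filtered amino acids back from the urine. Its mitochondria, peroxisomes and cytosol hold the enzymes that turn tryptophan into precursors of NAD, oxidise the branched-chain amino acids leucine, isoleucine and valine, cleave glycine, break down tyrosine, oxidise D-amino acids, and make arginine and the creatine precursor guanidinoacetate. The 36 enzymes described here were listed by pathway, and each was read from the brightest Affymetrix probe set annotated to that gene alone. Of the 36, 34 had such a probe set and all 34 passed the filter on dim signals, out of 18193 genes with a probe set of their own and 13004 genes tested. Acmsd and Amt were not analysed here.

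Whole kidneys of FVB/NJ mice were compared between diabetic and control animals at 3 ages, on 35 arrays. The diabetic animals carried the OVE26 transgene, calmodulin under an insulin promoter, which damages the insulin-making beta cells of the pancreas while the mice are still young. At 2 months of age 6 arrays came from diabetic and 6 from control kidneys; at 4 months the numbers were 7 and 4, and at 8 months 6 and 6. The labels name no agent or allele for the controls, and they do not say whether an array held the RNA of 1 animal or of a pool, so the p-values measure the spread between arrays. All values are log2 signals of the deposited table, and differences are diabetic minus control, so that -1 is a halving of the signal. The ± after a difference is its standard error from the limma model, and a gene was called when its p, adjusted over the 13004 genes, was under 0.05.

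The 25 proximal tubule markers measured averaged 11.23 to 12.08 on every array, against a filter value of 5.273, so the markers of the labelled tissue were bright on all 35. Some arrays stood apart. At 2 months, the 3' probe set of beta-actin exceeded the 5' one by 2.56 on control 6 and by at most 1.35 on the other arrays, and arrays 5 and 6 of both groups differed from arrays 1 to 4 over all genes. At 4 months, the clock gene Arntl read 7.84 and 8.17 on controls 3 and 4 and at most 6.21 on the rest. At 2 months it read 7.80, 7.88 and 8.29 on diabetic 1, 5 and 6, 7.66 on control 6 and at most 6.82 elsewhere. At 8 months it ran from 5.42 to 7.81 on diabetic arrays and from 5.31 to 6.77 on controls. At 8 months, diabetic 3 had the highest signals of the injury markers Lcn2 (11.67) and Havcr1 (11.03), and control 4 had an albumin signal of 12.34, where the other 8-month controls had 7.12 to 8.19. The counts of enzymes and of proximal tubule markers that fell are therefore also given without some of these arrays. At 2 months these are control 6, or arrays 5 and 6. At 4 months they are controls 3 and 4, and at 8 months diabetic 3 and control 4.

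Enzymes of amino acid breakdown were lower in diabetic kidneys at 8 months, with few changes at the younger ages. At 8 months 14 of the 34 fell and 0 rose (by limma, at an unadjusted p under 0.05 the count was 16 in both directions). Over all genes tested 6.95% were called lower and 9.87% higher at that age (16.8% in all), against 41.2% lower among the enzymes. In whole-kidney RNA fewer tubule cells and less RNA of an enzyme per cell cannot be told apart. The median difference of the enzymes was -0.26 and that of all genes was 0.00. At 2 months 2 fell (Aadat and Ivd) and 1 rose (Asl), where 1.78% and 0.754% of all genes were called lower and higher (2.54% in all). At 4 months 3 fell (Kmo, Aadat and Ivd) and 0 rose, where 0.554% and 0.415% of all genes were called lower and higher (0.969% in all). The median differences of the enzymes were -0.10 at 2 months and -0.11 at 4 months, beside -0.01 and 0.01 for all genes. With age, 24, then 23, then 29 of the 34 enzymes had a difference below 0.

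**Figure D1:**
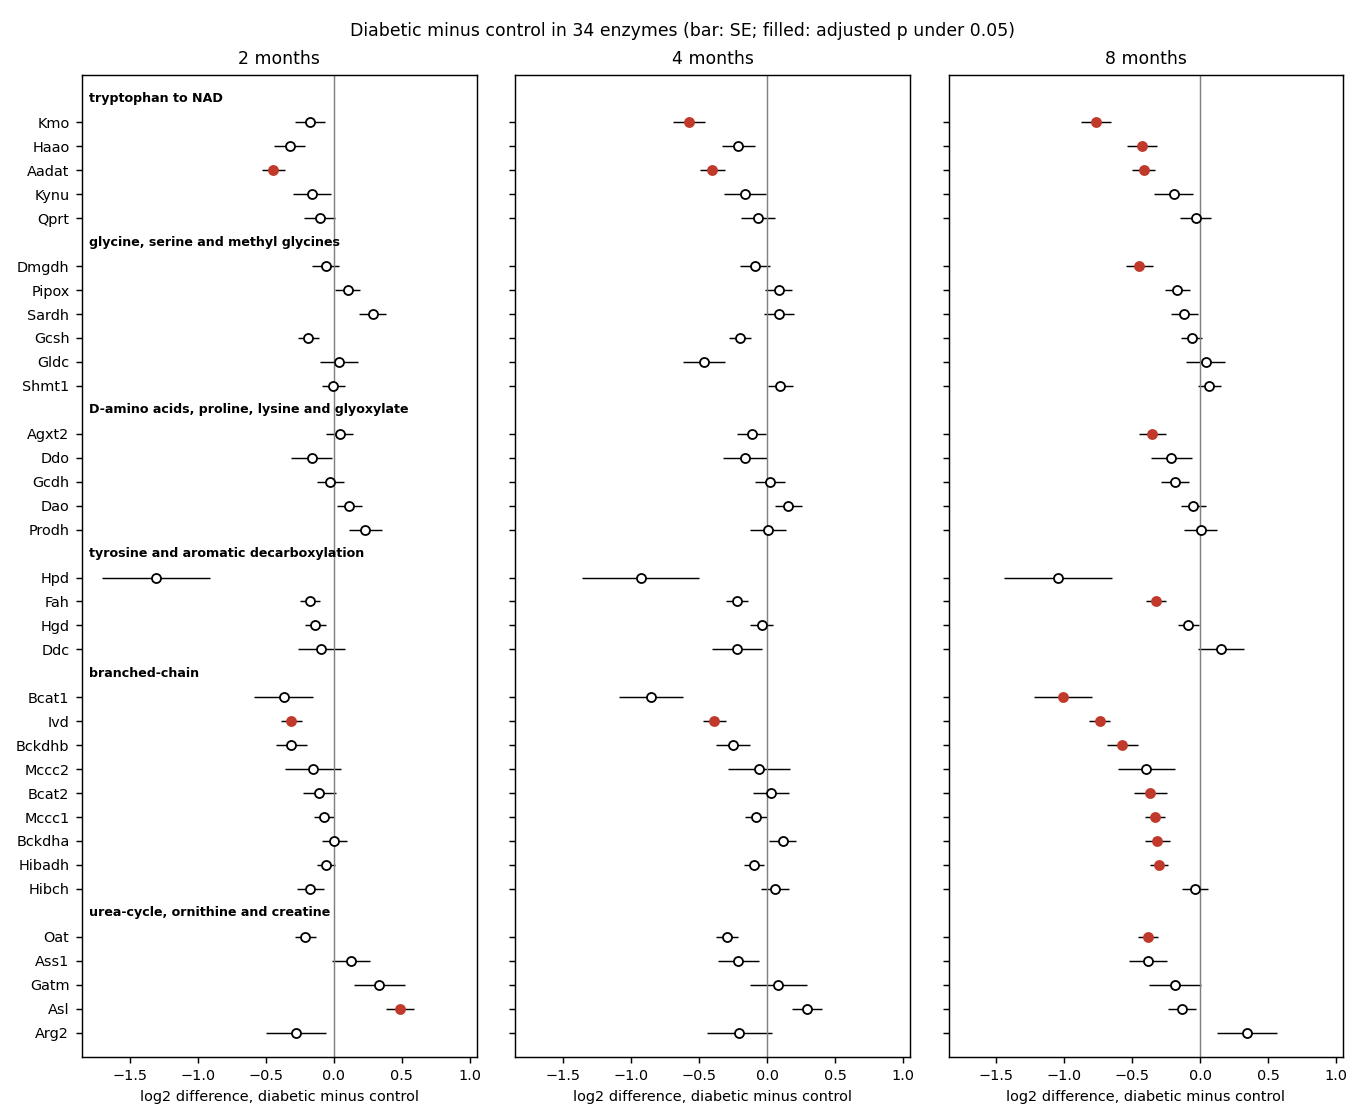
Log2 difference between diabetic and control kidneys (x axis) for each of the 34 enzymes (y axis, grouped by pathway) at 2, 4 and 8 months; points are the limma estimates, bars their standard errors, and filled points have an adjusted p under 0.05. There are 3 filled points at each of the younger ages and 14 at 8 months, and those 14 lie left of 0.

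All diabetic arrays lay below all controls for 1 enzyme at 2 months (0.961% of all genes), 7 at 4 months (2.44% of all genes) and 9 at 8 months (4.28% of all genes). All diabetic arrays lay above all controls for 0 enzymes at 4 months (2.37% of all genes) and for 0 at 8 months (5.41% of all genes). The 9 at 8 months were Kmo, Aadat, Haao, Fah, Bckdha, Bckdhb, Ivd, Hibadh and Oat. Diabetic 3 was the lowest diabetic array for 11 of the 14 enzymes that fell at 8 months, and the other 3 were lowest on diabetic 1 or 5. Without diabetic 3 the count of enzymes that fell was 12, since Bcat2 (adjusted p = 0.123) and Bckdha (adjusted p = 0.0545) missed the threshold. Without control 4 it was 14. At 4 months the count of 3 was 0 without controls 3 and 4, 1 without control 3 and 0 without control 4. At 2 months the count of 2 that fell was 4 with arrays 1 to 4 alone, 5 without control 6 and 3 with arrays 5 and 6 as a batch term.

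**Figure D2:**
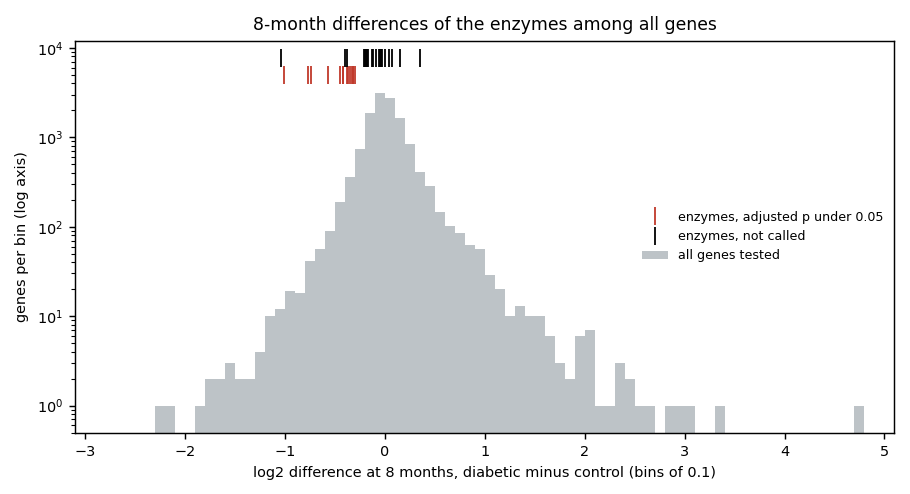
Histogram of the 8-month log2 differences of all 13004 genes tested (x axis; genes per bin of 0.1 on a log y axis), with the enzymes as ticks above it, red for adjusted p under 0.05 and black for the others. The red ticks run from -1.01 to -0.30, and the lone black tick beyond them on the left is Hpd at -1.04.

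Of the 5 tryptophan enzymes measured, 3 fell at 8 months: Kmo and Haao on the route to NAD, and Aadat on a side branch. Tryptophan is first opened to kynurenine. Kmo then hydroxylates it, Kynu and Haao carry it on to the precursor of quinolinate, and Qprt turns quinolinate into nicotinate mononucleotide, while the aminotransferase Aadat takes kynurenine aside to kynurenic acid and also acts in lysine breakdown. Kmo signals at 8 months were 9.18, 9.75 and 9.95 (lowest, median and highest) on the 6 diabetic arrays, against 10.16, 10.41 and 10.63 on the 6 control arrays. All 6 diabetic arrays lay below every control. Kmo fell by 0.77 ± 0.11, or 1.70-fold, with an adjusted p of 4.25e-06 in the limma fit.

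At 4 months Kmo had 9.48, 9.61 and 9.72 (lowest, median and highest) on the 7 diabetic arrays, against 10.30, 10.09, 10.06 and 10.19 on the 4 controls. Every diabetic array was below every control. The difference was -0.57 ± 0.12 (limma adjusted p = 0.00926), but it missed the threshold without control 4 (-0.56, adjusted p = 0.0543) and without controls 3 and 4 (-0.61, adjusted p = 0.209). At 2 months Kmo ran from 9.84 to 10.21 on diabetic arrays and from 9.96 to 10.46 on controls, and 2 of 6 diabetic arrays lay below all controls. That difference of -0.18 ± 0.11 was not called (limma adjusted p = 0.47).

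Aadat, the brightest of the 34 enzymes with a mean signal of 13.27, was called lower at all 3 ages. Its mean is at the 99.7th percentile of all 18193 genes with a probe set of their own. At 2 months its signals were 13.02, 13.21 and 13.31 (lowest, median and highest) on diabetic arrays, against 13.55, 13.63 and 13.68 on controls. At 4 months they were 12.67, 13.23 and 13.39 on diabetic arrays, against 13.47, 13.50, 13.64 and 13.59 on the 4 controls. At 8 months they were 12.78, 12.86 and 13.15 on diabetic arrays, against 13.27, 13.32 and 13.39 on controls. The groups did not overlap at any age. The limma difference was -0.44 ± 0.08 (adjusted p = 0.00237) at 2 months, -0.40 ± 0.09 (adjusted p = 0.0203) at the next age and -0.42 ± 0.08 (adjusted p = 0.000562) at the last. The 4-month call was lost without control 3 (-0.37, adjusted p = 0.124), without control 4 (-0.39, adjusted p = 0.104), without both (-0.34, adjusted p = 0.714) and without diabetic 6 (-0.36, adjusted p = 0.0516). It was also lost with a clock covariate (-0.38, adjusted p = 0.0631) and when the 4-month arrays were fitted alone (adjusted p = 0.1).

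Haao had 9.77, 10.40 and 10.686 (lowest, median and highest) on diabetic arrays at 8 months, against 10.689, 10.79 and 10.83 on controls. The groups touched but did not overlap, with the highest diabetic array just under the lowest control. Haao fell by 0.43 ± 0.11 (limma adjusted p = 0.00635). Its differences of -0.32 ± 0.11 at 2 months (adjusted p = 0.116) and -0.21 ± 0.12 at 4 months (adjusted p = 0.546) were not called, although the 2-month one was without control 6 (-0.40, adjusted p = 0.0338). Kynu and Qprt were not called at any age, and the smallest limma p of the pair was that of Kynu at 8 months (-0.20 ± 0.14, adjusted p = 0.381).

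The promoters of the 3 tryptophan enzymes that fell are shown here because these genes shared a direction at 8 months; each is the 200 bases before the RefSeq transcript start in GRCm38.p6, 5′ to 3′ on the strand of the gene, and capitals mark the motifs searched. Kmo lies at chr1:175631993-175632192 (+), Aadat at chr8:60505924-60506123 (+) and Haao at chr17:83846791-83846990 (-).
Kmo: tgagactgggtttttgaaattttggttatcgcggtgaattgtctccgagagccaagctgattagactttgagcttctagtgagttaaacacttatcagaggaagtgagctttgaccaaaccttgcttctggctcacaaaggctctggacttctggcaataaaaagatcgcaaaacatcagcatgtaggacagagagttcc
Aadat: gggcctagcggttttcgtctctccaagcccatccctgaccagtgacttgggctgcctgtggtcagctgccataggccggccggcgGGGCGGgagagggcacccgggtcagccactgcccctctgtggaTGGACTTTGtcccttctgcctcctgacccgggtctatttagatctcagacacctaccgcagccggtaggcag
Haao: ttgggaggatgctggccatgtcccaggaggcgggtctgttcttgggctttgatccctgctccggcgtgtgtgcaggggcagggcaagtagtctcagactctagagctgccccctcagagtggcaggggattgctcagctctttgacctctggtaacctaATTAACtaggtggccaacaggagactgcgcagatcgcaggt
The motifs were GTTAAT, a motif bound by HNF1; TATAAA, the TATA box; GGGCGG, the GC box; CACGTG, the E-box; CAAAGTCCA, a site bound by HNF4; and CCAAT, the CCAAT box, each read on both strands. HNF1 and HNF4 proteins are transcription factors of the proximal tubule. Aadat held a GC box that began 115 bases before the start and an HNF4 site on the other strand that began 72 bases before it. Haao held an HNF1 motif, also on the other strand, 41 bases before the start. The Kmo window held none of these letters and was poorer in G and C, at 43.5%, than those of Aadat (64.5%) and Haao (58.5%).

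Branched-chain enzymes made up 7 of the 14 that fell at 8 months, out of 9 measured. Leucine, isoleucine and valine are first transaminated by Bcat1 in the cytosol or Bcat2 in mitochondria, and their ketoacids are then committed to oxidation by a dehydrogenase complex whose E1 subunits are Bckdha and Bckdhb. Ivd and the carboxylase subunits Mccc1 and Mccc2 follow in leucine breakdown, and Hibch and Hibadh in that of valine. All 9 had differences below 0 at 8 months, with a median of -0.37. At 2 and 4 months only Ivd was called among these 9, and the medians were -0.15 and -0.08.

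Ivd, the dehydrogenase of isovaleryl-CoA, had the smallest adjusted p of the 34 enzymes at 8 months. Its signals were 10.497, 10.81 and 11.08 (lowest, median and highest) on diabetic arrays, against 11.51, 11.53 and 11.62 on controls. No diabetic array came within 0.4 of a control, and the controls were more alike than the diabetic arrays (SD 0.05 for controls and 0.23 for diabetic arrays, n = 6 each). Ivd fell by 0.74 ± 0.08, or 1.67-fold (limma adjusted p = 3.2e-08). At 4 months it had 10.70, 10.82 and 11.01 on diabetic arrays, against 11.21, 11.19, 11.27 and 11.34 on the 4 controls, again without overlap. That difference was -0.39 ± 0.08 (limma adjusted p = 0.0126), and it missed the threshold without control 3 (adjusted p = 0.0655), without control 4 (adjusted p = 0.0949), without both (-0.34, adjusted p = 0.547) and after quantile normalization of all arrays (-0.36, adjusted p = 0.0591). At 2 months it had 10.92, 11.01 and 11.32 on diabetic arrays, against 11.28, 11.37 and 11.44 on controls, and 5 of 6 diabetic arrays lay below all controls. The 2-month difference was -0.31 ± 0.08 (limma adjusted p = 0.0216), and it missed the threshold when the 2-month arrays were fitted alone (adjusted p = 0.111) and after quantile normalization of all arrays (-0.27, adjusted p = 0.0907) or within each age (-0.28, adjusted p = 0.0754). A dimmer probe set of Ivd gave -0.29, -0.45 and -0.72 at 2, 4 and 8 months.

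The Ivd promoter is shown because it held the CCAAT box 4 times, which was seen when the sequence was read; that motif was added to the search afterwards. It lies at chr2:118861794-118861993 (+), GRCm38.p6, and capitals mark the box, which reads ATTGG on this strand.
Ivd: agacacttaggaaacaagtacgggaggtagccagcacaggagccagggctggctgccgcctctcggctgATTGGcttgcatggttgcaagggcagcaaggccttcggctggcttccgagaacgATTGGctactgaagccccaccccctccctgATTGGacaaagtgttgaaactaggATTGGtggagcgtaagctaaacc
The boxes began 131, 77, 47 and 23 bases before the start. Of all 32851 promoters in the RefSeq table, 164 (0.499%) held at least 4, and Ivd was the lone member of the enzyme list among them. At least 1 CCAAT box stood in 29.3% of all promoters.

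Bcat1 had the largest called difference of the 34 enzymes at 8 months. Its signals were 8.04, 8.76 and 9.39 (lowest, median and highest) on diabetic arrays, against 9.36, 9.66 and 10.02 on controls. Of the 6 diabetic arrays, 5 lay below every control and the remaining one just above the lowest control. Bcat1 fell by 1.01 ± 0.21, or 2.01-fold (limma adjusted p = 0.000919), and dimmer probe sets gave -1.005 and -0.91. At 4 months its difference was -0.85 ± 0.23, which missed the threshold (limma adjusted p = 0.0701), and at 2 months it was -0.37 ± 0.21 (adjusted p = 0.429). Bcat2 had 8.70, 9.07 and 9.41 on diabetic arrays at 8 months, against 9.38, 9.46 and 9.54 on controls, with 4 of 6 diabetic arrays below all controls. It fell by 0.37 ± 0.12 (limma adjusted p = 0.0344).

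**Figure D3:**
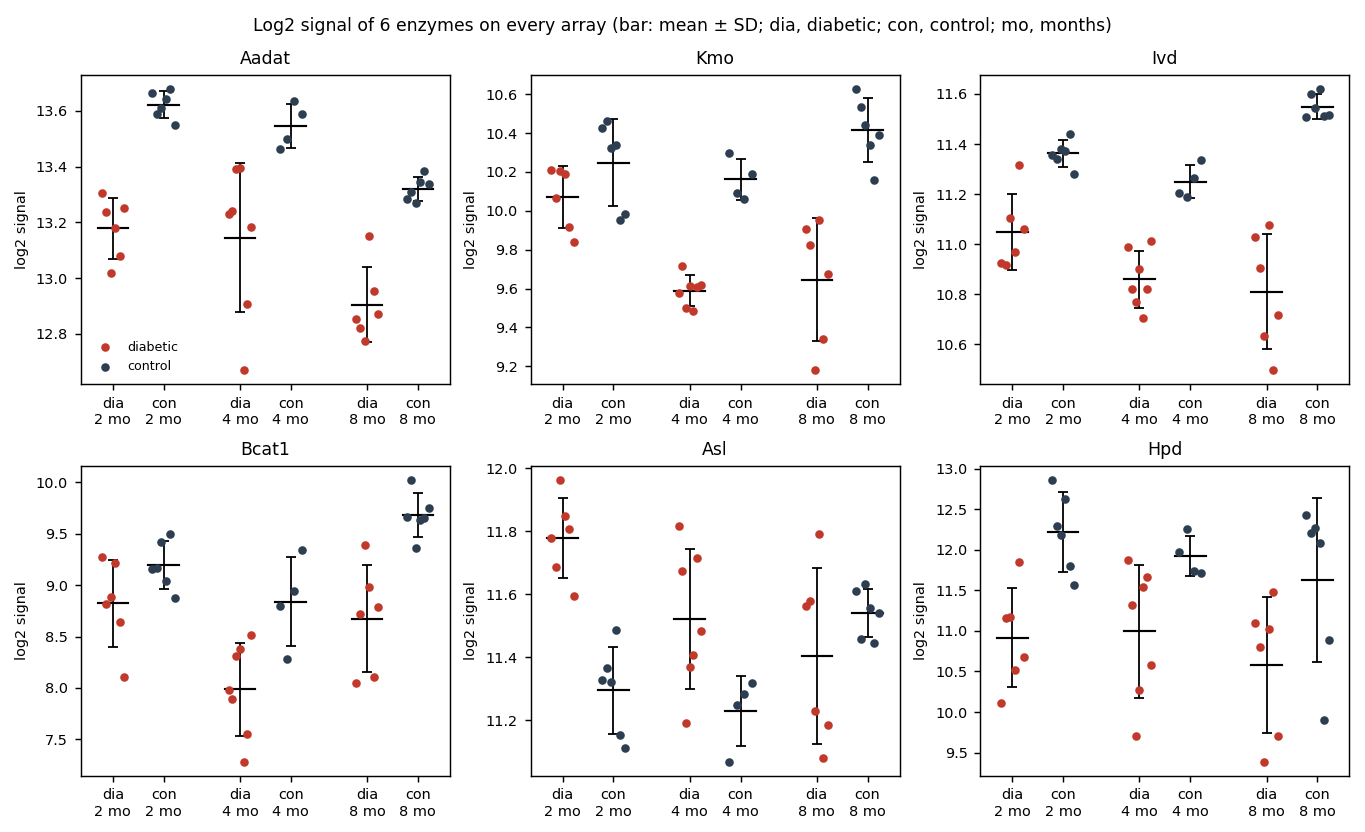
Log2 signal (y axis) of Aadat, Kmo, Ivd, Bcat1, Asl and Hpd on every array, for diabetic and control kidneys at 2, 4 and 8 months (x axis); points are arrays and bars the mean ± SD. At 8 months the 6 diabetic arrays of Aadat, Kmo and Ivd lie below all 6 controls, while those of Asl and Hpd overlap them.

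Both E1 subunits of the branched-chain ketoacid dehydrogenase fell at 8 months. Bckdhb had 9.78, 10.43 and 10.54 (lowest, median and highest) on diabetic arrays, against 10.78, 10.86 and 10.90 on controls. Bckdha had 10.26, 10.55 and 10.74 on diabetic arrays, against 10.77, 10.83 and 10.90 on controls. Neither gene had a diabetic array within the range of the controls. Bckdhb fell by 0.57 ± 0.12, or 1.49-fold (limma adjusted p = 0.000512), and Bckdha by 0.32 ± 0.09 (adjusted p = 0.0139). At 4 months the 7 diabetic arrays of Bckdhb were also all below the 4 controls, with a difference of -0.25 ± 0.13 that was not called (adjusted p = 0.448). It was called when the 4-month arrays were fitted alone (limma adjusted p = 0.0169) and with array weights. Without controls 3 and 4 it was -0.26 and not called.

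Further along the leucine and valine branches, Mccc1 had 9.25, 9.53 and 9.86 (lowest, median and highest) on diabetic arrays at 8 months, against 9.77, 9.86 and 10.08 on controls, with 5 of 6 diabetic arrays below all controls. Mccc1 fell by 0.33 ± 0.07 (limma adjusted p = 0.00145). Hibadh, among the brightest of these enzymes with a mean of 12.82, fell by 0.30 ± 0.07 (adjusted p = 0.00117). Mccc2, the partner subunit of Mccc1, stood at -0.40 ± 0.21 and was not called (adjusted p = 0.207), although 5 of 6 diabetic arrays lay below all controls. Its 3 probe sets gave -0.40, -0.44 and -0.39. The spread of Mccc2 was estimated over all groups, and control 6 at 2 months read 8.59 where the next lowest control of that age read 9.86; when the arrays of 8 months were fitted without the other ages, the adjusted p was 0.0236. Hibch stood at -0.04 ± 0.10 (95% interval -0.23 to 0.16).

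Of the enzymes of glycine, serine and the methyl glycines, 1 of 6 measured fell at 8 months and none was called at the younger ages by limma, where 2 had an unadjusted p under 0.05 at each. Dmgdh removes a methyl group from dimethylglycine in mitochondria. It had 9.18, 9.68 and 9.94 (lowest, median and highest) on diabetic arrays at 8 months, against 9.88, 10.06 and 10.43 on controls. Of the 6 diabetic arrays 1 reached into the control range and 5 lay below it. Dmgdh fell by 0.45 ± 0.10 (limma adjusted p = 0.00169). Sardh, which acts on the product sarcosine, stood at 0.28 ± 0.10 at 2 months (adjusted p = 0.137, and adjusted p = 0.0474 with the replicate number as a block) and -0.12 ± 0.10 at 8 months (adjusted p = 0.488). Gldc, the P protein of the glycine cleavage system, was at -0.46 ± 0.15 at 4 months without overlap of the arrays, and was not called (adjusted p = 0.173). It was called when the 4-month arrays were fitted alone (limma adjusted p = 0.0169) and with array weights, but not without controls 3 and 4 (-0.54, adjusted p = 0.769). At 8 months Gldc was at 0.04 ± 0.14 (95% interval -0.25 to 0.33). Gcsh, Shmt1 and Pipox ranged from -0.20 to 0.10 over the 3 ages.

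Among 5 enzymes of D-amino acids, proline, lysine and glyoxylate, Agxt2 fell at 8 months. This mitochondrial aminotransferase uses glyoxylate and also breaks down dimethylarginine. It had 7.92, 8.53 and 8.65 (lowest, median and highest) on diabetic arrays at 8 months, against 8.57, 8.79 and 8.96 on controls, with 3 of 6 diabetic arrays below all controls and 3 within their range. Agxt2 fell by 0.35 ± 0.10 (limma adjusted p = 0.0107), and a fit of the 8-month arrays alone gave an adjusted p of 0.0536. D-amino acid oxidase (Dao) stood at -0.05 ± 0.09 and proline dehydrogenase (Prodh) at 0.00 ± 0.12 at 8 months, with 95% intervals of -0.24 to 0.13 and -0.24 to 0.25. Gcdh and Ddo stood at -0.19 ± 0.10 (adjusted p = 0.223) and -0.21 ± 0.15 (adjusted p = 0.38).

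Tyrosine is broken down in turn by Hpd, Hgd and Fah. Fah, the enzyme at the end of the path, had 11.65, 12.05 and 12.24 (lowest, median and highest) on diabetic arrays at 8 months, against 12.26, 12.33 and 12.37 on controls, and no diabetic array reached the control range. It fell by 0.32 ± 0.07 (limma adjusted p = 0.00205). At 4 months the 7 diabetic arrays of Fah were also below the 4 controls (-0.22 ± 0.08), which was not called (adjusted p = 0.221). That difference was called when the 4-month arrays were fitted alone (limma adjusted p = 0.0426) and with array weights, but not without controls 3 and 4 (-0.25, adjusted p = 0.916). Hpd had the largest differences below 0 of the 34 enzymes at all 3 ages, and it was called at none. Its limma values were -1.30 ± 0.40 (adjusted p = 0.0679) in the youngest animals, -0.93 ± 0.43 (adjusted p = 0.406) at 4 months and -1.04 ± 0.40 (adjusted p = 0.0678) in the oldest. Its signals varied widely within groups. At 8 months they were 9.39, 10.91 and 11.48 on diabetic arrays, against 9.91, 12.15 and 12.42 on controls, and controls 5 and 6 (9.91 and 10.89) lay among the diabetic arrays. The 8-month difference of Hpd was called without control 5 (-1.39, adjusted p = 0.00824), without control 6 (-1.19, adjusted p = 0.0455), without diabetic 5 (-1.22, adjusted p = 0.039), after quantile normalization of all arrays (-1.14, adjusted p = 0.0458) and with a beta-actin 3'/5' covariate (-1.10, adjusted p = 0.0494). At 2 months 5 of 6 diabetic arrays lay below all controls, and Hpd was called there without control 6 (-1.44, adjusted p = 0.0459), with arrays 1 to 4 alone (-1.75, adjusted p = 0.0489) and with array weights (-1.63, adjusted p = 0.00354). The 8-month difference of Hpd was -0.805 without diabetic 3 (limma adjusted p = 0.209) and -0.953 without control 4 (adjusted p = 0.132). Its highest 2-month control signals, 12.86 and 12.63, were on controls 1 and 4. Those controls also had the highest hepatocyte marker means of that age (8.10 and 8.03). At 8 months control 4 had the highest hepatocyte mean (9.59) and an Hpd signal of 12.09. That signal was below controls 1 to 3 (12.42, 12.21 and 12.26) and above controls 5 and 6. A link was not tested. Hgd and the dopamine-making decarboxylase Ddc were not called at any age, and at 8 months stood at -0.09 ± 0.08 and 0.15 ± 0.17.

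Among the urea-cycle, ornithine and creatine enzymes, Asl was called higher at 2 months and Oat lower at 8 months. No age had calls in both directions. Oat, which turns ornithine into a glutamate precursor, had 11.90, 12.01 and 12.17 (lowest, median and highest) on diabetic arrays at 8 months, against 12.36, 12.43 and 12.45 on controls, with no overlap. Oat fell by 0.38 ± 0.08 (limma adjusted p = 0.00042). At 4 months the 7 diabetic arrays of Oat were also below the 4 controls (-0.30 ± 0.08), which missed the threshold (adjusted p = 0.0784). That difference was called when the 4-month arrays were fitted alone (limma adjusted p = 0.0329) and with array weights. Without controls 3 and 4 it was -0.16 and not called.

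Asl, argininosuccinate lyase, which makes arginine, was the one enzyme of the list that rose, and it did so at 2 months. Its signals then were 11.60, 11.79 and 11.96 (lowest, median and highest) on diabetic arrays, against 11.11, 11.33 and 11.49 on controls. All 6 diabetic arrays were above every control, which held for 0.538% of all genes at that age. Asl rose by 0.48 ± 0.10, or 1.40-fold (limma adjusted p = 0.00597). At 4 months 6 of 7 diabetic arrays were above the controls (0.29 ± 0.11, adjusted p = 0.257). At 8 months the diabetic arrays stood on both sides of the controls, 3 below, 2 within and 1 above their range (-0.14 ± 0.10, adjusted p = 0.409).

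Ass1, the synthase before Asl, was read from a dim probe set with a mean of 6.74. That is the 47.2th percentile of all 18193 genes with a probe set of their own. A brighter probe set is annotated to Ass1 together with a second gene, so it was not used. At 8 months Ass1 stood at -0.38 ± 0.14, which missed the threshold (limma adjusted p = 0.0547). The difference was -0.25 without control 4 (adjusted p = 0.206). It was called after quantile normalization of all arrays (adjusted p = 0.047) or within each age (adjusted p = 0.0486), with array weights (adjusted p = 0.0365), the replicate block (adjusted p = 0.0398) or the clock covariate (adjusted p = 0.0476), and without diabetic 2, control 5 or control 6 (adjusted p = 0.0162 to 0.0201). The brighter probe set, whose signal cannot be assigned to either gene, had 12.65, 13.15 and 13.36 (lowest, median and highest) on diabetic arrays at 8 months, against 13.45, 13.52 and 13.56 on controls, without overlap. Gatm, which makes the creatine precursor, stood at 0.34 ± 0.19, 0.08 ± 0.21 and -0.18 ± 0.19 at 2, 4 and 8 months and was not called. The mitochondrial arginase Arg2 was likewise not called, at -0.28 ± 0.22, -0.20 ± 0.24 and 0.35 ± 0.22.

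The diabetes effect itself was compared between ages. For 3 of the 34 enzymes the 8-month difference was lower than the 2-month one, where 0.877% of all genes were called in that direction, and for 0 it was higher (3.01% of all genes, and 3.89% in both directions). For Kmo the 8-month minus the 2-month difference was -0.59 ± 0.15 (limma adjusted p = 0.0227), for Ivd -0.43 ± 0.11 (adjusted p = 0.0213) and for Asl -0.62 ± 0.14 (adjusted p = 0.00973). In an F test over the 3 ages, which called 2.5% of all genes, Asl (adjusted p = 0.027) and Ivd (adjusted p = 0.0449) were called and Kmo was not (adjusted p = 0.061). The Kmo difference between ages missed the threshold without control 1 at 8 months (adjusted p = 0.0501), and that of Ivd with arrays 1 to 4 alone at 2 months (-0.36, adjusted p = 0.0653). No enzyme was called by limma between 8 and 4 months (8 had an unadjusted p under 0.05), where 0.877% of all genes were. Between 4 and 2 months no enzyme was called either (2 had an unadjusted limma p under 0.05), where 0 of 13004 genes were. The array means differed between ages (6.43 to 6.44 at 2 months, 6.02 to 6.04 at 4 months and 6.54 at 8 months), so levels were not set against each other across ages.

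Other enzymes and partners of the same pathways were followed as a list of 78, of which 57 were tested. At 8 months 14 of them fell and 5 rose, with a median of -0.15. Of all genes tested, 6.95% were called lower and 9.87% higher at that age, and the 5 rises among 57 do not exceed that share. Without diabetic 3 the counts were 10 and 5, and without control 4 they were 12 and 5. Afmid, which makes kynurenine just before Kmo, had 8.34, 8.87 and 9.50 (lowest, median and highest) on diabetic arrays, against 9.52, 9.93 and 10.17 on controls, and fell by 0.94 ± 0.14 (limma adjusted p = 1.27e-05) without overlap. Acat1, the thiolase at the end of isoleucine breakdown, fell by 0.50 ± 0.06 (adjusted p = 3.53e-07). Ppm1k, the phosphatase that activates the branched-chain ketoacid dehydrogenase, fell by 0.50 ± 0.12 (adjusted p = 0.0036). Cbs, which starts the conversion of homocysteine to cysteine, fell by 0.48 ± 0.12 (adjusted p = 0.00539).

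The largest rises in that list at 8 months were those of monoamine oxidase B (Maob, 0.74 ± 0.21, limma adjusted p = 0.013), the proline-making enzyme Aldh18a1 (0.74 ± 0.14, adjusted p = 0.000285), alanine aminotransferase (Gpt, 0.73 ± 0.19, adjusted p = 0.00677) and Ftcd of histidine breakdown (0.72 ± 0.15, adjusted p = 0.000595). The Maob call was lost without diabetic 5 (0.56, adjusted p = 0.0556). Ftcd also rose at 2 months (0.66 ± 0.15) and 4 months (0.73 ± 0.16). Its 2-month call was lost when that age was fitted alone (adjusted p = 0.0618), and its 4-month call without control 3 (0.62, adjusted p = 0.133), without control 4 (0.67, adjusted p = 0.104) and without both (0.48, adjusted p = 0.91).

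At 2 months 3 of the 57 fell and 3 rose, with a median of -0.05, where 1.78% of all genes were called lower and 0.754% higher. Without control 6 the count that fell was 5, and with arrays 1 to 4 alone it was 6, with 3 that rose in both cases. A batch term for arrays 5 and 6 gave 4 and 5. Kyat3, another aminotransferase that makes kynurenic acid, had 10.97, 11.15 and 11.23 on diabetic arrays at that age, against 11.66, 11.70 and 11.76 on controls, and fell by 0.57 ± 0.07 (adjusted p = 1.24e-05). It fell by 0.38 ± 0.08 at 4 months and 0.43 ± 0.07 at 8 months. Its 4-month call, like that of Aadat, was lost without control 3 (-0.35, adjusted p = 0.0653), without control 4 (-0.33, adjusted p = 0.0862) and without both (-0.25, adjusted p = 0.81). The others called at 2 months were Cbs (-0.58 ± 0.12), Acat1 (-0.21 ± 0.06, adjusted p = 0.0491, and adjusted p = 0.0641 with the replicate block), the NAD synthetase Nadsyn1 (0.33 ± 0.08) and the creatine transporter gene Slc6a8 (0.32 ± 0.08). The Acat1 call was lost in 9 of 14 other settings and 10 of 12 fits that left out 1 array (adjusted p up to 0.236). That of Nadsyn1 was lost with arrays 1 to 4 alone (0.25, adjusted p = 0.17), when that age was fitted alone (adjusted p = 0.139) and without diabetic 1, diabetic 3, control 3 or control 6 (adjusted p up to 0.0664). That of Slc6a8 was lost when that age was fitted alone (adjusted p = 0.271) and without diabetic 1 or 3 or controls 1, 2, 3 or 4 (adjusted p up to 0.0765). At 4 months 1 fell (Kyat3) and 1 rose (Ftcd), with a median of -0.06, and both counts were 0 without control 3, control 4 or both. Of all genes, 0.554% were called lower and 0.415% higher at 4 months.

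Other lists of genes moved with the enzymes at 8 months. For all the lists below, the shares over all genes at 8 months were 6.95% called lower and 9.87% called higher. Of 25 proximal tubule markers 13 fell and 0 rose, with a median of -0.27 (10 fell without diabetic 3 and 12 without control 4). Their mean signal per array ran from 11.23 to 11.71 on diabetic arrays and from 11.74 to 11.87 on controls. They included the endocytic receptor gene Lrp2 (-0.50 ± 0.13), the glucose transporter gene Slc5a2 (-0.46 ± 0.09) and Hnf4a, the gene for an HNF4 protein (-0.20 ± 0.06, adjusted p = 0.0222). The enzyme mean ran from 10.16 to 10.64 on diabetic arrays and from 10.64 to 10.76 on controls.

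**Figure D4:**
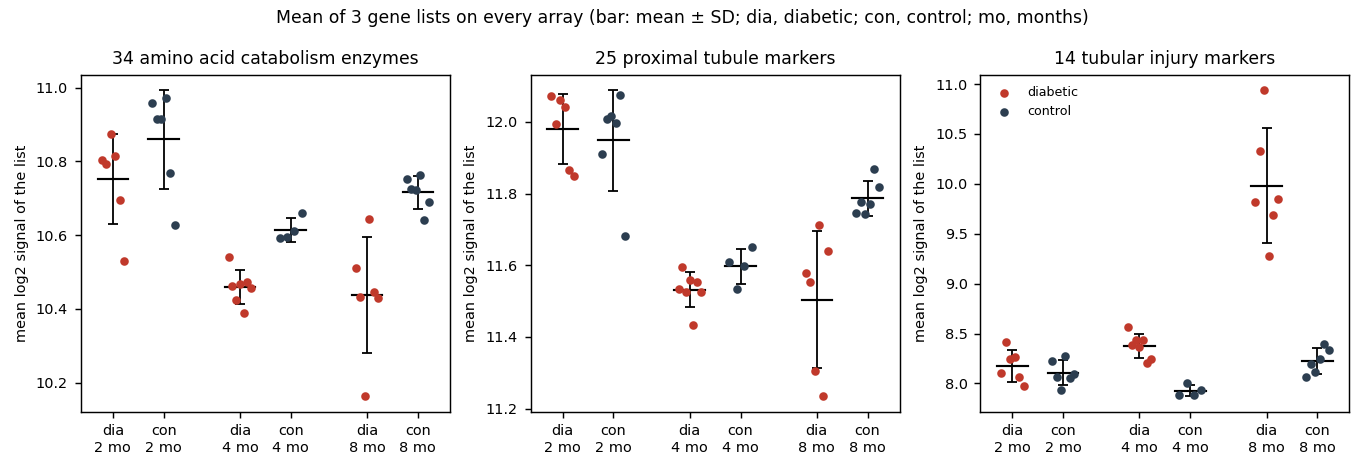
Mean log2 signal per array (y axis) of the 34 enzymes, 25 proximal tubule markers and 14 tubular injury markers, for diabetic and control kidneys at 2, 4 and 8 months (x axis); points are arrays and bars the mean ± SD. At 8 months the injury markers run from 9.27 to 10.94 on diabetic arrays and from 8.06 to 8.40 on controls, while the proximal tubule markers are lower on all 6 diabetic arrays.

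All 14 tubular injury markers tested rose at 8 months, with a median of 1.34 and a mean per array of 9.27 to 10.94 on diabetic arrays and 8.06 to 8.40 on controls. Macrophage and dendritic cell markers rose in 13 of 14 cases (median 1.46; 8.37 to 10.03 on diabetic arrays and 7.36 to 7.78 on controls), led by Lyz2 (2.69 ± 0.23) and Cd68 (2.35 ± 0.21). Lymphocyte and plasma cell markers rose in 6 of 8 cases (median 0.81; 7.37 to 8.74 on diabetic arrays and 7.04 to 7.37 on controls) and fibroblast and matrix markers in 6 of 9 (median 0.62; 8.33 to 10.66 on diabetic arrays and 7.72 to 8.79 on controls). Diabetic 3, where 23 of the 34 enzymes had their lowest diabetic signal, also had the highest mean of these 4 lists. Thick ascending limb and distal markers rose in 2 and fell in 6 of 12 cases, with a median of -0.26. The part of these cell types in the enzyme differences was not tested. No marker has a true 0 on an array, so none can be called absent.

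At 2 months 2 of 25 proximal tubule markers fell (median 0.01, and 2 also without control 6 or with arrays 1 to 4 alone), and 0 of 14 injury markers were called (median -0.01). Of all genes, 1.78% were called lower and 0.754% higher at 2 months. At that age 1 of 12 thick ascending limb and distal markers fell, Umod (-0.19 ± 0.05, limma adjusted p = 0.0421), with a list median of -0.19, while no hepatocyte (median -0.27), fibroblast and matrix (0.15), macrophage and dendritic cell (0.00) or lymphocyte and plasma cell marker (-0.07) was called. Their part in the 2-month values of Aadat, Ivd and Asl was not tested. At 4 months 0 of 25 proximal tubule markers changed (median -0.07), and 0 fell without control 3, without control 4 or without both. Of 14 injury markers 1 rose at that age (median 0.44), where 0.554% of all genes were called lower and 0.415% higher. The injury mean ran from 8.20 to 8.56 on diabetic arrays and from 7.88 to 8.00 on controls. Clock genes were not called at 2 or 4 months and 2 of 10 fell at 8 months (medians -0.05, 0.46 and -0.31). Adipocyte markers fell in 1 of 4 cases at 4 months and 2 of 4 at 8 months. Of 8 hepatocyte markers 1 rose and 1 fell at 8 months. The one that fell was albumin (-1.81 ± 0.49), and control 4 had a hepatocyte mean of 9.59 where the other controls had 6.41 to 6.64. Without that array 14 enzymes fell at 8 months. At 2 months controls 1 and 4 had hepatocyte means of 8.10 and 8.03, where the other controls had 6.91 to 7.34, and leaving out any 1 array of that age gave 2 to 5 enzymes that fell. No fit left out both of these controls, so their joint part in that count was not tested.

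Over the whole list, RefSeq held 40 promoter windows for 33 of the 36 enzymes. The HNF4 site stood in 3 of the 40 windows, 1 of Aadat and both of Agxt2, which may share bases, beside 0.317% of all 32851 promoters. The HNF1 motif stood in 2 windows (5.06% of all promoters), the TATA box in 4 (9.96%), the E-box in 4 (5.26%), the GC box in 15 (31%) and the CCAAT box in 15 (29.3%). Among the 18 windows of the 14 enzymes that fell at 8 months the counts were 3, 2, 2, 0, 6 and 6 in the same order. A match to these letters is a description of the sequence and not a bound site.

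Other probe sets of the same genes were compared where they exist. For 14 enzymes there were 20 further probe sets and 60 comparisons over the 3 ages, of which 47 had the sign of the brightest probe set. In the 7 comparisons where the enzyme was called, all 7 had the same sign. These came from Ivd, Bcat1, Hibadh and Mccc1 alone. The other called enzymes had no second probe set that names them alone.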

How the data were processed

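Total RNA of whole kidneys (5 ug per array) was, per the labels, labelled with biotin for Affymetrix arrays. The deposited values are log2 signals of 45101 probe sets on 35 arrays; how the authors corrected background, summarized and normalized is not given in the sources used here, and the ages may have been scaled apart. There is no read depth; precision is limited by how many arrays a group has, with a median within-group SD of 0.191, 0.12 and 0.141 at 2, 4 and 8 months. No 2 arrays were identical.

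Probe sets were named from the platform annotation: 34945 name 1 gene, 932 several and 9160 none, and 64 are controls; 34741 matched RefSeq by gene identifier. The brightest probe set of each gene over all arrays was used, and genes with a mean under 5.273, the 40th percentile of probe sets, were left out. Group means were estimated in limma 3.58.1 (R 4.3.3; tables were read by data.table, version 1.17.8), with 29 residual degrees of freedom, 33.7 after moderation, and Benjamini-Hochberg adjustment of two-sided p over the genes tested. The fit was tested on simulated data with independent normal values and, for each gene, the same spread in all groups. That simulation held no correlation between arrays and no spread that differs between groups, so it does not test the fit under those conditions. Figures were drawn with matplotlib 3.10.9.

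The enzymes and all gene lists were chosen with earlier results of these data known, so their counts and medians are descriptions. Array values are given for the 14 enzymes with the largest differences among those called at any age, and Hibadh, the smallest, by its difference. Other members are given by class, with the smallest p as example, and of the other pathway enzymes up to 4 per direction and age are named.

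The labels do not say whether equal replicate numbers pair arrays. Residuals of same-numbered diabetic and control arrays correlated at 2 months in 6 of 6 pairs (r 0.246 to 0.444). At 4 months 1 of 4 was above 0.1 (0.0484 to 0.177), and at 8 months 2 of 6 were (-0.142 to 0.233). The main fit paired no arrays at any age, so its 2-month standard errors and p-values leave this correlation out. A block on the replicate number within each age was run as an alternative.

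Alternatives were other filters, quantile normalization, median centring, the mean of all probe sets, fits of 1 age, array weights, a trended robust prior, the replicate block, clock and 3'/5' covariates, a batch term, and leaving out arrays.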

Additional observations from a re-analysis of the deposited data

Results flagged for a closer look

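In 204 sets of arrays (34 enzymes in 6 groups), 11 had an array far from the rest of its group by Dixon's test, which chance does in about 1 of 20. Of the 11, 6 were on control 6 at 2 months, the array with the high beta-actin 3'/5' ratio. It was low for Sardh (10.13, next 10.48), Mccc2 (8.59, next 9.86), Gatm (10.73, next 12.02), Arg2 (8.66, next 9.46) and Oat (12.38, next 12.90), and high for Ddo (10.03, next 9.39). Without it 5 enzymes fell at 2 months in place of 2.

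The other 5 were on 4 arrays. Diabetic 6 at 2 months was low for Hgd (12.13, next 12.39) and Fah (11.81, next 12.09), and diabetic 5 of that age was low for Ddo (8.89, next 9.27). Control 4 at 4 months was high for Agxt2 (8.965, next 8.78), and diabetic 3 at 8 months was low for Hgd (12.32, next 12.62).

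The diabetes effect differed between 8 and 2 months for Kmo (-0.59, limma adjusted p = 0.0227), Ivd (-0.43, adjusted p = 0.0213) and Asl (-0.62, adjusted p = 0.00973). For Kmo and Ivd the 8-month difference lay further below 0, and for Asl a rise at 2 months stood against an uncalled difference below 0 at 8 months.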

How the results depend on the processing

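The 8-month count of enzymes that fell, 14, stayed between 12 and 16 under every alternative run. Of the 20 enzyme calls over the 3 ages, 13 held in all alternatives run on them, 27 of 486 single results missed the threshold, and 0 turned direction. At 2 months the count that fell (2) was 1 with quantile normalization of all arrays, 1 with it within each age, 1 in a fit of that age alone, 10 with array weights, 4 with arrays 1 to 4, and 2 to 5 leaving out 1 array; the count that rose (1) was 2 with array weights. At 4 months the count that fell (3) was 8 with array weights, 6 in a fit of that age alone, 0 without controls 3 and 4, and 0 to 4 leaving out 1 array. The count with a lower effect at 8 than at 2 months (3) was 6 with quantile normalization of all arrays and 6 with array weights, and 2 to 4 leaving out 1 array. At 8 against 4 months (0) it was 1 with quantile normalization of all arrays, 1 within each age, 1 with array weights, and 0 to 1 leaving out 1 array. The cause was not tested.

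With the replicate number as a block within each age, the count that rose at 2 months was 2. Sardh was added there (0.28, limma adjusted p = 0.0474), and Acat1 missed the threshold (adjusted p = 0.0641). In all, 553 genes were called at that age. No other call named at 2 months changed. At 4 months the block used 4 pairs, and whether equal numbers pair arrays there is not known. Aadat then stood at -0.23 (limma adjusted p = 0.135) and Kyat3 missed the threshold (adjusted p = 0.052). At 8 months Mccc2 (adjusted p = 0.0181) and Ass1 (adjusted p = 0.0398) were added.

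Over all genes, 330 were called at 2 months, 1296 with array weights, 696 with a batch term, 64 in a fit of that age alone and 192 to 515 leaving out 1 array. At 4 months 126 were called, 942 with array weights, 358 in a fit of that age alone, 5 without controls 3 and 4, and 29 to 135 leaving out 1 array. For 8 minus 2 months 506 were called, 1118 with array weights, 854 with the batch term and 329 to 759 leaving out 1 array. For 8 minus 4 months 114 were called, 68 with the 60th percentile filter, 458 with array weights, 19 with the replicate block, 36 with the clock covariate, 14 without controls 3 and 4, and 64 to 260 leaving out 1 array. The spread between arrays limits which differences can pass, with an SE of 0.40 for Hpd at 8 months. Among the 34 enzymes, Bcat2 at 8 months was the call most often lost, missing the threshold with array weights, with the clock covariate and in 7 fits leaving out 1 array.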
